A study of Mus musculus with 6 samples.

Results

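The genes of the DNA replication machinery were followed in whole kidneys of NICD1 mice and littermate controls. The set holds 50 genes of known roles in replication out of 19937 genes measured, and all 50 were measured. No value entered the choice rule, but earlier results of these data were known when the set was drawn up. They cover origin recognition, licensing, the replicative helicase, the polymerases, the sliding clamp and its loader, single-strand binding, flap removal and ligation, nucleotide supply, and the copying of chromatin. Each gene is represented by 1 probe set, the brightest one on average that carries a single gene symbol. The values are log2 expression after robust multi-array averaging (RMA), so a difference of 1 is a 2-fold difference.

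The study compared 3 arrays of littermate wild-type mice, whose genotype is labelled normal, with 3 arrays of mice of the genotype Pax8rtTA TREICNotch1. In the second group the Notch1 intracellular domain, which is the active form of the receptor, is inducible in tubule epithelial cells, where the Pax8rtTA transgene drives it. Each sample was RNA of a whole kidney on its own array. The strain, sex and age of the mice, the inducing agent and the time of induction are not given in the sources used here, nor is whether the 3 arrays of a group came from separate animals. The p-values therefore measure the spread between these arrays, which may be partly technical. Notch1, the gene the transgene adds to, read 6.66, 6.59 and 6.45 in the 3 controls and 10.29, 10.30 and 9.99 in the 3 NICD1 kidneys, so each array matched its label. Arrays correlated at 0.991 to 0.993 within controls, 0.986 to 0.990 within NICD1 and 0.927 to 0.945 between groups, across 28187 probe sets. The mean level over 7 kidney tubule markers was above 10.9 log2 in controls and 8.47 to 9.06 in NICD1 kidneys, where 6 of the 7 were lower.

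Replication of nuclear DNA starts in G1 phase, when the origin recognition complex, Cdc6 and Cdt1 load the ring-shaped Mcm2 to Mcm7 helicase onto origins. In S phase Cdc45 and the GINS complex join the ring and open the double helix, polymerase alpha with primase starts each strand, and polymerases delta and epsilon extend it. Most cells of an adult kidney tubule are not dividing, and many genes of this machinery are transcribed mainly in dividing cells under the control of E2F factors.

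Most replication genes were higher in NICD1 kidneys. By limma, 42 of 50 were higher at an adjusted p under 0.05, 0 were lower and 8 did not pass, against 17.8% of all 19937 genes higher and 14.9% lower (32.7% called in either direction). At an unadjusted p under 0.05, 43 were higher and 1 (Orc3) was lower. The median difference of the 50 genes was 0.99 log2, beside 0.015 for all genes. Of the 50, 25 were called and at least 2-fold higher, where 4.65% of all genes were. In 44 of 50 genes all 3 NICD1 values lay above all 3 control values, which held for 23.7% of all genes. These shares of all genes are also the background for the counts by role that follow. The differences ranged from -0.27 log2 in Orc3, which did not pass, to 3.61 in Mcm6, a 12.2-fold rise. When a change of more than 1.5-fold was required by the test itself, 24 of the 50 genes passed as higher, beside 846 of all 19937 genes. In whole-kidney RNA, more cells that transcribe a gene and more transcript per cell cannot be told apart.

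**Figure D1:**
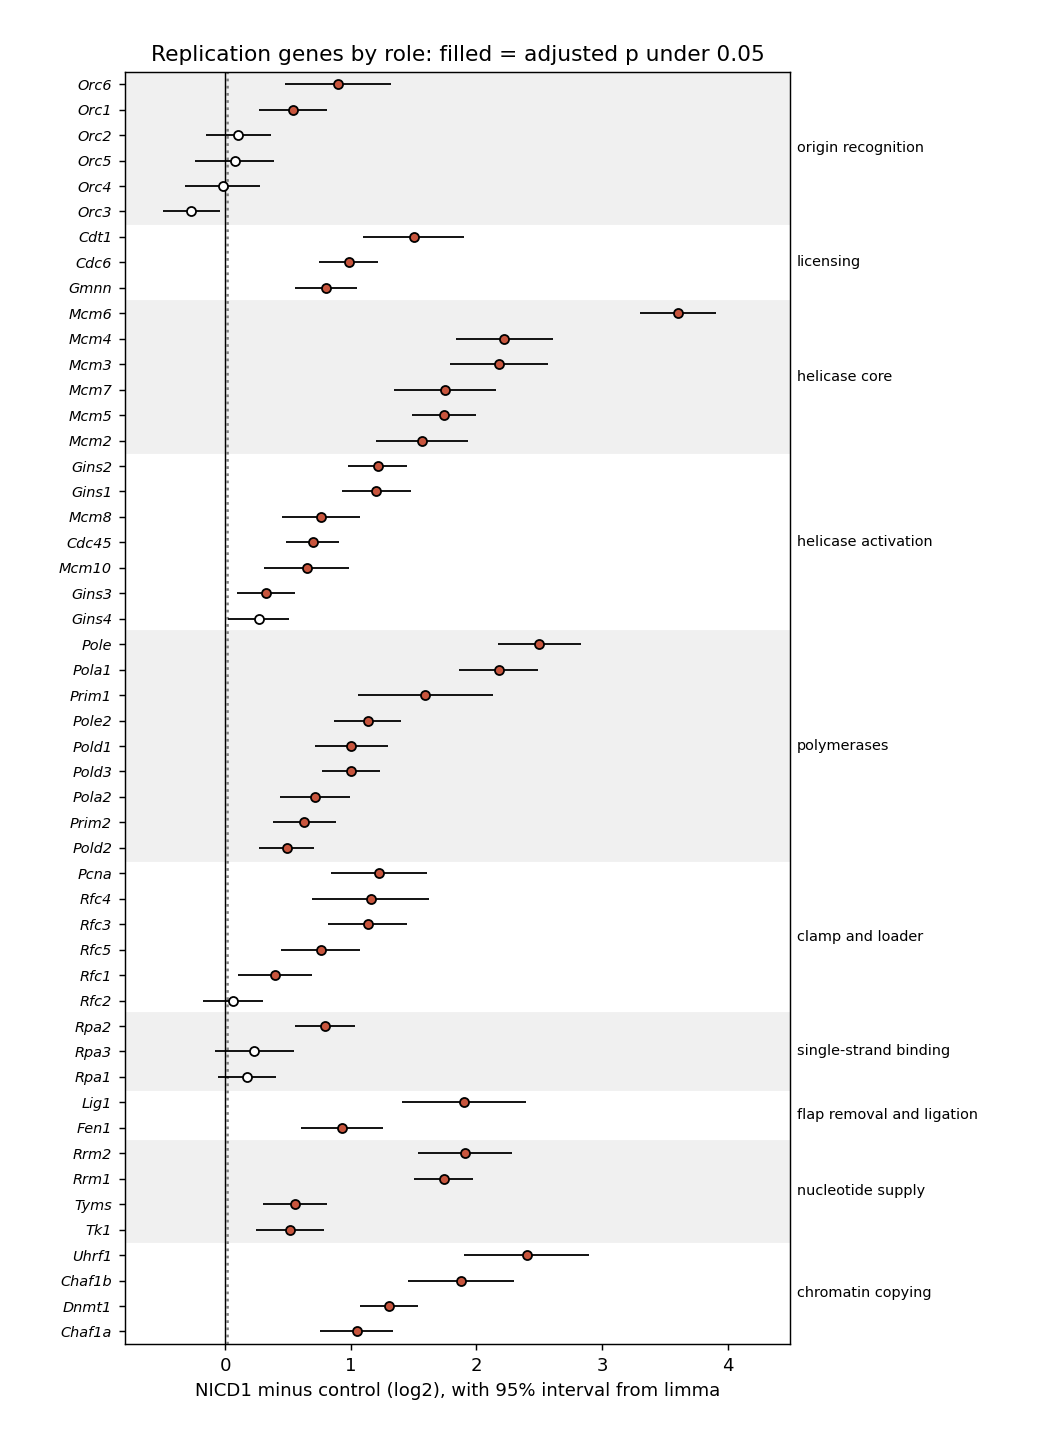
Difference between NICD1 and control kidneys (log2, x axis) for each of the 50 replication genes, grouped by role, with the 95% interval from limma; filled points passed an adjusted p of 0.05, and the dotted line is the median of all genes (0.015). All 6 helicase core genes lie between 1.57 and 3.61, while Orc2 to Orc5 lie between -0.27 and 0.10.

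All 6 genes of the helicase core were higher, and they held the largest single rise of the set. Mcm6 read 4.24, 4.01 and 4.05 in controls and 7.88, 7.45 and 7.80 in NICD1 kidneys, a 12.2-fold difference (3.61 log2, SE 0.13, adjusted p = 2.90e-07). Every NICD1 value stood at least 3.20 log2 above the highest control. Mcm4 read 4.68, 4.42 and 5.06 against 7.17, 6.83 and 6.83, a 4.66-fold difference (2.22 log2, SE 0.17, adjusted p = 1.23e-05). Mcm3 read 4.76, 5.03 and 5.0 against 7.38, 6.71 and 7.25, a 4.54-fold difference (2.18 log2, SE 0.17, adjusted p = 1.42e-05). Mcm3 and Mcm4 encode ATPase subunits of the same ring as Mcm6, and both groups of arrays stood well apart in all of them. Mcm7 read 5.90, 5.98 and 6.25 against 7.92, 7.39 and 8.09, 3.37-fold higher (1.75 log2, SE 0.18, adjusted p = 7.24e-05). Mcm5 read 5.51, 5.41 and 5.32 against 7.19, 7.0 and 7.28, 3.35-fold higher (1.74 log2, SE 0.11, adjusted p = 4.77e-06). Mcm2 read 5.81, 5.73 and 5.36 against 7.28, 6.92 and 7.41, 2.96-fold higher (1.57 log2, SE 0.16, adjusted p = 7.24e-05). In none of the 6 did the groups overlap, and the gap between the nearest arrays of the 2 groups ran from 1.11 log2 in Mcm2 to 3.20 in Mcm6. NICD1 replicate 2 had the lowest of the 3 NICD1 values in 5 of the 6 genes, all but Mcm4.

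Because the helicase genes moved together and E2F factors are the known regulators of many of them, the promoter windows of the set were searched for a pair of short E2F words, TTTCCCGC and TTTGGCGC, on both strands (on the opposite strand they read GCGGGAAA and GCGCCAAA). The windows come from RefSeq (GRCm38.p6) and run from 250 bases before to 50 after a start site. The table held 53 windows for 42 of the 50 genes and 32851 windows in all, and Gmnn, Mcm4, Pole, Rfc2, Prim2, Gins1, Gins2 and Gins4 were not in it. At least 1 of the words stood in 15 of 53 windows (28.3%), against 514 of all 32851 (1.56%). The 15 windows belong to 15 genes, 14 of them among the 36 genes of the table that were called higher and 1, Orc3, among the 6 that did not pass. The windows of the set were richer in G and C, with a median of 61.3% against 52.7% for all windows, and the part of that in the shares was not tested. Of the helicase core genes in the table, Mcm2 held neither word, and 1 of the 2 windows of Mcm7 held one. A match describes letters in a window and does not show binding.

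The Mcm6 upstream sequence is shown because Mcm6 had the largest rise and 2 copies of a word, 110 and 47 bases before its start. Short stretches around the word follow for Mcm3, which holds both words, for Mcm5, Mcm7, Pola1, Cdc6, Cdt1 and Dnmt1, and for Orc3, which did not pass and was lower on average. Letters in capitals mark the E2F words, and each sequence reads 5′ to 3′ on the strand of its gene in GRCm38.p6.
Mcm6 (chr1:128359706-128359955, minus strand): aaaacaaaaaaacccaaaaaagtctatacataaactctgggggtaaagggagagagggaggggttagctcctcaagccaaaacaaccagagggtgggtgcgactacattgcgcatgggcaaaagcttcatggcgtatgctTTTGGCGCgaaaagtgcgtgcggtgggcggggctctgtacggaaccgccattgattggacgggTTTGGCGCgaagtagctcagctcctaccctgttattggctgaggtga
Mcm3 (chr1:20820267-20820293, minus strand): GCGGGAAAacttgggaagtTTTGGCGC
Mcm5 (chr8:75109350-75109377, plus strand): aagaactttcGCGCCAAAacgtccagcc
Mcm7 (chr5:138172031-138172058, minus strand): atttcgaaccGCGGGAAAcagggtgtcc
Pola1 (chrX:93632276-93632303, minus strand): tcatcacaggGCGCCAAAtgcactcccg
Cdc6 (chr11:98908003-98908030, plus strand): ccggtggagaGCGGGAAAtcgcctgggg
Cdt1 (chr8:122568037-122568064, plus strand): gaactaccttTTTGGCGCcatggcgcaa
Dnmt1 (chr9:20952574-20952600, minus strand): cggggcagcgTTTGGCGCgggctgtgc
Orc3 (chr4:34614966-34614993, minus strand): catgcctcccTTTCCCGCacgccccgcc

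**Figure D2:**
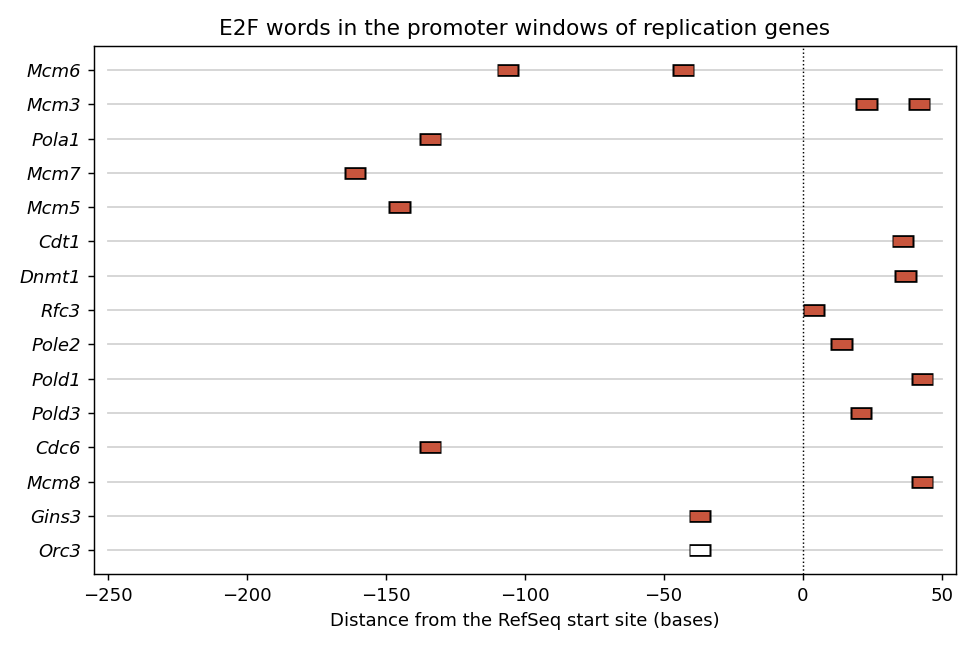
Position of each E2F word (boxes) in the RefSeq promoter windows of the 15 replication genes that hold at least 1, in bases from the start site (dotted line), with genes ordered by their difference between NICD1 and control. Mcm6 and Mcm3 hold 2 each, and Orc3 (white box) is the gene of these 15 that did not pass the test.

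The origin recognition complex marks the places where replication can begin. Of its 6 genes, 2 were higher and 4 did not pass, beside 17.8% of all genes higher, and differences between the subunits were not tested. Orc6, the smallest and most loosely bound subunit, read 5.01, 4.94 and 5.53 in controls and 6.39, 5.90 and 5.89 in NICD1 kidneys, 1.86-fold higher (0.90 log2, SE 0.19, adjusted p = 0.00490). Orc1, the subunit that comes and goes with the cell cycle in mammalian cells, read 2.98, 2.99 and 2.89 against 3.40, 3.72 and 3.36, 1.45-fold higher (0.54 log2, SE 0.12, adjusted p = 0.00676). For both genes the groups did not overlap, although Orc1 had a dim probe set, at percentile 10.3 of the control levels of all genes.

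The 4 other subunits, which with Orc1 form the ring that holds DNA, showed no rise that passed. Orc2 read 6.50, 6.55 and 6.75 against 6.84, 6.70 and 6.58, a difference of 0.10 log2 with a 95% interval of -0.16 to 0.37 (adjusted p = 0.582). Orc4 read 6.45, 6.73 and 6.86 against 6.79, 6.66 and 6.52, a difference of -0.021 (interval -0.32 to 0.28, adjusted p = 0.936). Orc5 read 6.11, 6.22 and 6.59 against 6.41, 6.48 and 6.26, a difference of 0.075 (interval -0.24 to 0.39, adjusted p = 0.758). In these 3 genes the groups overlapped, and no interval reached above 0.39 log2, below the difference of any helicase core gene. Orc3 read 7.49, 7.43 and 7.48 against 7.31, 7.09 and 7.17, and its groups did not overlap, with NICD1 below control. Its difference was -0.27 (interval -0.50 to -0.045, adjusted p = 0.0683). The gene was called lower once arrays were centred on their medians (-0.39, adjusted p = 0.0146), with array weights (-0.30), without the dimmest genes (-0.27) and without NICD1 replicate 1 (-0.33). Centring also turned the small differences of Orc2 and Orc5 below 0.

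**Figure D3:**
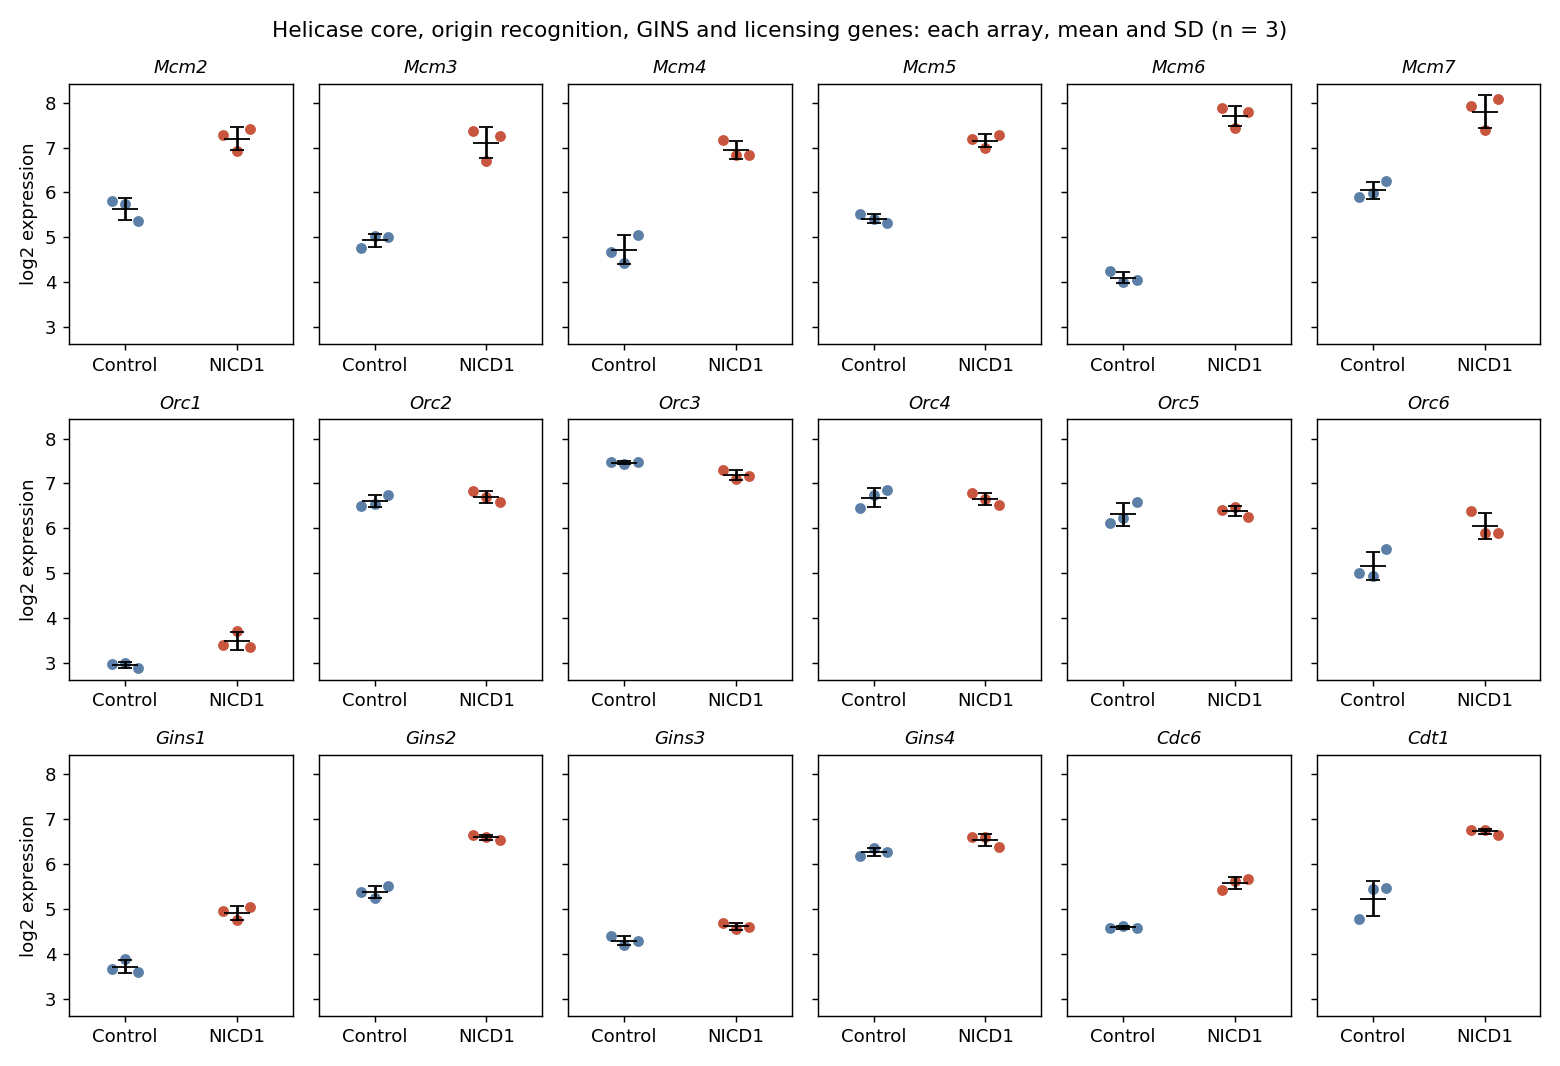
log2 expression on each array (points; blue, control; red, NICD1) with mean and SD (n = 3) for the helicase core, the origin recognition complex, the GINS subunits, Cdc6 and Cdt1; levels of different genes come from different probes and are not comparable. In Mcm2 to Mcm7 the groups are at least 1.11 log2 apart, while those of Orc2, Orc4 and Orc5 overlap.

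The licensing factors, which load the helicase and limit it to a single round, were all higher. Cdt1, the loader that brings the Mcm ring to the origin, read 4.77, 5.45 and 5.47 in controls and 6.76, 6.77 and 6.66 in NICD1 kidneys, 2.83-fold higher (1.5 log2, SE 0.18, adjusted p = 0.000169). Its control values were spread, with replicate 1 the lowest, and its NICD1 values lay close together. Geminin (Gmnn), the inhibitor of Cdt1, read 3.99, 4.14 and 4.06 against 4.84, 5.02 and 4.74, 1.75-fold higher (0.80 log2, SE 0.11, adjusted p = 0.000395). Cdc6, the ATPase that closes the loading complex, was 1.98-fold higher (0.98 log2, adjusted p = 8.39e-05). Loader and inhibitor thus rose in the same arrays, with no overlap between groups in any of the 3 genes.

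Of the 7 genes that turn the loaded ring into an active helicase or belong to it more distantly, 6 were higher and Gins4 did not pass. The 4 GINS subunits form a single complex, yet their differences fell in a high pair and a low pair. Gins2 read 5.39, 5.25 and 5.51 against 6.65, 6.60 and 6.54, 2.32-fold higher (1.22 log2, SE 0.10, adjusted p = 2.42e-05), and Gins1 was 2.30-fold higher (1.20 log2, adjusted p = 6.47e-05). Gins4 read 6.18, 6.36 and 6.27 against 6.60, 6.62 and 6.39, a difference of 0.26 log2 (interval 0.019 to 0.51, adjusted p = 0.0990), and passed without NICD1 replicate 3 (0.34, adjusted p = 0.0462). Gins3 was higher by 0.33 log2 (adjusted p = 0.0346), a call that was lost after quantile normalization (0.25) and centring (0.20), under a trended robust variance, with the replicate block, and when any array but control replicate 1 was left out. The difference between the 2 pairs was not tested. Cdc45, which bridges the ring and GINS, was 1.62-fold higher (0.70 log2, adjusted p = 0.000407), and Mcm10, needed to start unwinding, 1.57-fold (0.65, adjusted p = 0.00843). Mcm8, a relative of the ring proteins that works in recombination repair, was 1.70-fold higher (0.76 log2, adjusted p = 0.00216).

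All 9 polymerase and primase genes were higher, and the catalytic subunits of alpha and epsilon had larger differences than their partners, a contrast between genes that was not tested. Pole, the catalytic subunit of the leading-strand polymerase epsilon, read 3.93, 4.33 and 4.33 in controls and 6.75, 6.87 and 6.48 in NICD1 kidneys, 5.67-fold higher (2.50 log2, SE 0.15, adjusted p = 3.20e-06). Its partner Pole2 was 2.19-fold higher (1.13 log2, adjusted p = 7.25e-05). Pola1, the catalytic subunit of polymerase alpha, was 4.52-fold higher (2.18 log2, adjusted p = 4.52e-06) and its regulatory subunit Pola2 1.64-fold (0.71, adjusted p = 0.00172). The primase subunit that makes the RNA primer, Prim1, was 3.02-fold higher (1.59 log2, adjusted p = 0.000716) and its partner Prim2 1.54-fold (0.63, adjusted p = 0.00194). In polymerase delta, which copies the lagging strand, the catalytic Pold1 was 2.01-fold higher (1.0 log2, adjusted p = 0.000278) and the accessory Pold3 2.0-fold (1.0, adjusted p = 6.80e-05). Pold2 had the smallest difference of the 9 and read 5.54, 5.54 and 5.66 against 6.11, 6.0 and 6.11, 1.41-fold higher (0.49 log2, SE 0.10, adjusted p = 0.00358). In each of the 9 genes the groups did not overlap.

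The sliding clamp and 4 of its 5 loader genes were higher. Pcna, the ring that holds the polymerases on DNA, read 8.23, 8.11 and 7.62 against 9.26, 9.01 and 9.37, 2.34-fold higher (1.23 log2, SE 0.17, adjusted p = 0.000434). A second Pcna probe set, not chosen by the rule, gave 1.41 log2 (adjusted p = 4.59e-05 over all probe sets). Among the loader subunits Rfc4 was 2.23-fold higher (1.16 log2, adjusted p = 0.00205), Rfc3 2.19-fold (1.13, adjusted p = 0.000208) and Rfc5 1.69-fold (0.76, adjusted p = 0.00229). Rfc1, the large subunit, stood just inside the threshold at 0.39 log2 (adjusted p = 0.0456), and the call was lost after centring (0.27), with the replicate block, with adjustment over all probe sets, and when control replicate 1 (0.28) or 3 (0.42), or NICD1 replicate 1 (0.32) or 2 (0.40), was left out. Rfc2 read 6.66, 6.83 and 6.86 against 6.82, 6.76 and 6.96, with overlapping groups and a difference of 0.061 log2 (interval -0.18 to 0.30, adjusted p = 0.741), which centring turned to -0.062.

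Replication protein A coats single-stranded DNA at the fork and in repair, and of its 3 subunits Rpa2 was higher. Rpa2 read 5.96, 6.03 and 5.77 in controls and 6.67, 6.76 and 6.71 in NICD1 kidneys, 1.73-fold higher (0.79 log2, SE 0.11, adjusted p = 0.000349). Rpa1, the large DNA-binding subunit, read 6.38, 6.49 and 6.41 against 6.50, 6.60 and 6.72, a difference of 0.18 (interval -0.055 to 0.41, adjusted p = 0.250). Rpa3 read 4.94, 5.03 and 4.69 against 4.91, 5.10 and 5.35, a difference of 0.23 (interval -0.085 to 0.55, adjusted p = 0.272), and a second probe set of the gene also gave 0.23. The NICD1 values of Rpa2 lay clear of its controls, those of Rpa1 began 0.0054 log2 above the highest control, and those of Rpa3 overlapped them.

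Both genes that finish the lagging strand were higher. Lig1, the ligase that seals Okazaki fragments, read 5.24, 5.53 and 4.96 against 7.02, 6.79 and 7.63, 3.74-fold higher (1.90 log2, SE 0.22, adjusted p = 0.000139), with NICD1 replicate 3 the highest array. Fen1, which cuts the flaps between fragments, read 4.35, 4.55 and 4.80 against 5.71, 5.40 and 5.38, 1.90-fold higher (0.93 log2, SE 0.14, adjusted p = 0.000898). In neither gene did the groups overlap.

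The 4 genes of deoxynucleotide supply were higher, those of ribonucleotide reductase most. Rrm2, the small subunit whose level limits the enzyme in S phase, read 5.56, 4.97 and 5.28 in controls and 7.14, 6.99 and 7.40 in NICD1 kidneys, 3.75-fold higher (1.91 log2, SE 0.17, adjusted p = 2.51e-05). Its large partner Rrm1 was 3.34-fold higher (1.74 log2, adjusted p = 3.43e-06). Tyms, which makes thymidylate, was 1.47-fold higher (0.55 log2, adjusted p = 0.00435). Tk1, the cytosolic salvage kinase for thymidine, read 5.75, 5.78 and 5.52 against 6.07, 6.16 and 6.36, 1.43-fold higher (0.51 log2, SE 0.12, adjusted p = 0.00892). A second Tk1 probe set gave 0.40 log2 and did not pass (adjusted p = 0.173 over all probe sets), so the call rests on the brighter probe set. Which probe set of Tk1, Pcna and Rpa3 lies at the gene itself was not checked, so the chosen one may read another sequence.

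The genes that rebuild chromatin behind the fork were all called and at least 2-fold higher, 4 of 4. Uhrf1, which finds hemimethylated DNA and recruits the maintenance methyltransferase, read 4.59, 4.51 and 3.99 in controls and 6.92, 6.29 and 7.07 in NICD1 kidneys, 5.28-fold higher (2.40 log2, SE 0.22, adjusted p = 3.64e-05). Dnmt1, that methyltransferase, was 2.47-fold higher (1.30 log2, adjusted p = 1.32e-05). Chromatin assembly factor 1 places new histones on copied DNA, and its subunit Chaf1b was 3.67-fold higher (1.88 log2, adjusted p = 6.03e-05). Its large subunit Chaf1a read 5.12, 5.12 and 5.42 against 6.08, 6.34 and 6.38, 2.06-fold higher (1.05 log2, SE 0.13, adjusted p = 0.000205). NICD1 replicate 2 was the lowest NICD1 array for Uhrf1, Dnmt1 and Chaf1b, while replicate 1 was for Chaf1a, and in all 4 genes the groups stood apart.

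The 3 NICD1 kidneys had similar levels of the set. The mean over the 50 genes was 6.51, 6.36 and 6.51 in NICD1 replicates 1 to 3, against 5.32, 5.40 and 5.41 in the controls. For the 42 genes called higher, the median distance of an NICD1 array from the control mean was 1.20, 1.03 and 1.19 log2. Replicate 2 was the lowest NICD1 array in 27 of the 50 genes (54.0%), where it was the lowest for 30.5% of all genes. Leaving out each array in turn, between 40 and 42 of the 50 genes were called higher.

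Genes that work beside the set were followed through 105 genes in 7 lists, of which 99 were measured. The lists were drawn up from textbook roles, with earlier results of these data known. Among all genes 17.8% were higher and 14.9% lower, with a median difference of 0.015 log2. Of 26 other genes of the replication fork, 17 were higher, 0 lower and 9 did not pass (median 0.55 log2). Top2a, the topoisomerase that untangles copied chromosomes, was higher by 3.41 log2 (adjusted p = 2.78e-06), Dbf4, the activator of the origin-firing kinase, by 1.46, Topbp1 by 1.40 and the Pcna unloader Atad5 by 1.27. Of 17 genes of E2F factors, pocket proteins and entry into S phase, 13 were higher, 0 lower and 4 did not pass (median 0.71 log2). E2f2 (-0.41, adjusted p = 0.0607) passed as lower under both other scalings and with the replicate block. The count of lower genes in this list was also 1 without the dimmest genes, with array weights and without NICD1 replicate 3. Cyclin A2 (Ccna2) was higher by 2.90 log2 (adjusted p = 9.14e-07), the pocket protein gene Rbl1 by 1.80, the repressor E2f8 by 1.56 and the activator E2f1 by 1.15. Of 10 genes of histone supply and deposition, 7 were higher and 3 did not pass (median 0.53 log2), with the chromatin remodeller Hells at 2.91, the histone chaperones Asf1b at 2.28 and Nasp at 0.71, and the histone mRNA binder Slbp at 0.58. With a required change of 1.5-fold, 9 of the fork genes, 5 of the E2F list and 2 of the histone list passed as higher. Under that test 846 of all 19937 genes were higher. Pole4, a fork gene (-0.27), passed as lower under both other scalings.

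Checkpoint and nucleotide supply genes were called in both directions, as were all genes (17.8% higher and 14.9% lower). The shares lower, 6.67% of the checkpoint list and 14.3% of the nucleotide supply list, did not exceed that of all genes. Of 15 genes of the replication stress checkpoint and fork repair, 9 were higher, 1 lower and 5 did not pass (median 0.62 log2, or 0.33 without the dimmest genes). Chek1, the checkpoint kinase, was higher by 2.06 log2 (adjusted p = 8.95e-05), Brca1 by 1.74, the helicase gene Blm by 1.44 and Fancd2 by 1.05, while Hus1, part of the clamp that signals damage, was lower by 0.91 (adjusted p = 9.72e-05). Of 14 other nucleotide supply genes, 7 were higher, 2 lower and 5 did not pass (median 0.27 log2). After centring 5 were higher and 2 lower with a median of 0.15. A required change of 1.5-fold left 1 higher and 1 lower, beside 846 and 992 of all 19937 genes. The mitochondrial folate enzyme Mthfd2 was higher by 1.37 log2 (adjusted p = 6.61e-05), the salvage kinase Dck by 0.80 and the pyrimidine synthesis enzyme Cad by 0.66. The lower ones were Shmt2, another mitochondrial folate enzyme, at -2.31 log2 (adjusted p = 8.49e-06), and Rrm2b at -0.67 (adjusted p = 0.00870). Rrm2b is the form of the small reductase subunit that serves cells outside S phase, so within the same enzyme Rrm2 was higher and Rrm2b lower.

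Replication of mitochondrial DNA uses a separate set of enzymes. Of 10 such genes measured, 1 was higher, 2 lower and 7 did not pass (median -0.039 log2, or -0.16 after centring), beside background shares of 17.8% and 14.9%. Top1mt, the mitochondrial topoisomerase, was lower by 0.51 log2 (adjusted p = 0.00492) and the polymerase gene Polrmt by 0.35 (adjusted p = 0.0374), while Primpol, a primase that also acts in the nucleus, was higher by 0.48 (adjusted p = 0.0426). The helicase gene Twnk differed by -0.28 (adjusted p = 0.0643) and passed as lower under both other scalings. It also passed without the dimmest genes (adjusted p = 0.0448) and with array weights (adjusted p = 0.0388). Primpol lost its call under both scalings (0.38, adjusted p = 0.0961, and 0.35, adjusted p = 0.126), which left 0 genes higher, and also with the replicate block, array weights, adjustment over all probe sets and every array left out but control replicate 3. Polrmt lost its call with the replicate block (adjusted p = 0.0730), array weights and every array left out but NICD1 replicate 2.

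**Figure D4:**
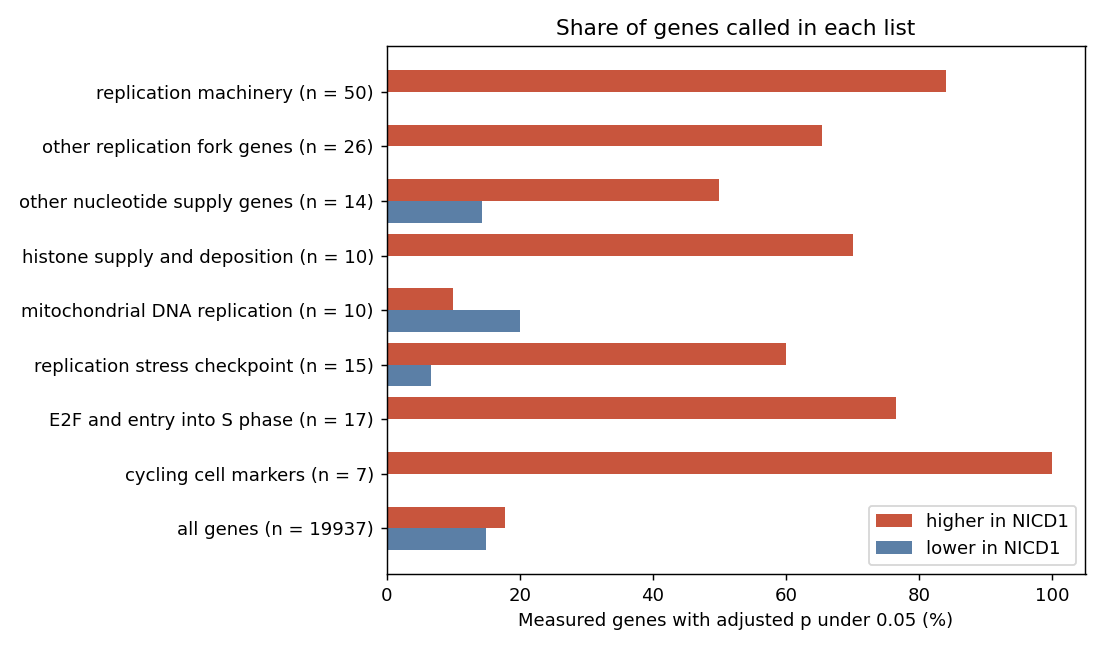
Share of measured genes (x axis, percent) called higher (red) or lower (blue) in NICD1 kidneys at an adjusted p under 0.05, for the replication genes, 7 neighbouring lists and all genes. The replication genes reach 84.0% higher and 0 lower, the mitochondrial DNA replication genes 1 of 10 higher and 2 of 10 lower, and all genes 17.8% and 14.9%.

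Markers of dividing cells and of several cell types moved in the same arrays. All 7 measured markers of cycling cells were higher, with Mki67 at 3.24 log2, Bub1 at 2.59, Plk1 at 1.97 and Aurkb at 1.60. Of 10 measured macrophage and dendritic cell markers, 9 were higher and Csf1r did not pass (-0.049), and their summed level on the linear scale ran from 388 to 425 in controls and from 1706 to 3295 in NICD1 kidneys. Of 7 fibroblast markers 5 were higher and Pdgfra and Dcn did not pass, with sums of 889 to 1119 against 2248 to 3653. Of 7 measured lymphocyte markers 2 were higher, Cd8a (1.38 log2) and Cd3e (0.30), and 1 was lower, Ms4a1 (-0.45). Cd3g (0.046), Cd4 (0.048), Cd79a (-0.18) and Cd79b (-0.22) did not pass. Among all genes 17.8% were higher and 14.9% lower. The lymphocyte sums were 121.2 to 122.5 against 150 to 177. Cd8a was the brightest of these markers in NICD1 kidneys, at 5.83 log2 against 4.45 in controls. All 6 neutrophil markers did not pass (71.1 to 77.2 against 75.0 to 76.4). Endothelial markers were lower in 3 of 6 (sums 869 to 880.0 against 326 to 595), erythroid markers in 3 of 4 (509 to 581 against 212 to 265) and tubule markers in 6 of 7 (sums 17880 to 18600 against 7115 to 7559). Bright probe sets dominate these sums. Umod, which was higher by 0.32 log2, is the brightest tubule marker in NICD1 kidneys. The other 6 tubule markers were lower by 2.08-fold (Aqp2) to 26.5-fold (Slc34a1). Tfrc is the brightest of the erythroid list, with a mean of 8.69 log2 in controls and 7.33 in NICD1 kidneys. The macrophage sum was highest in NICD1 replicate 1. No marker can be called absent, since the values carry no detection calls. The part of each cell type in the levels of the replication genes was not tested.

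**Figure D5:**
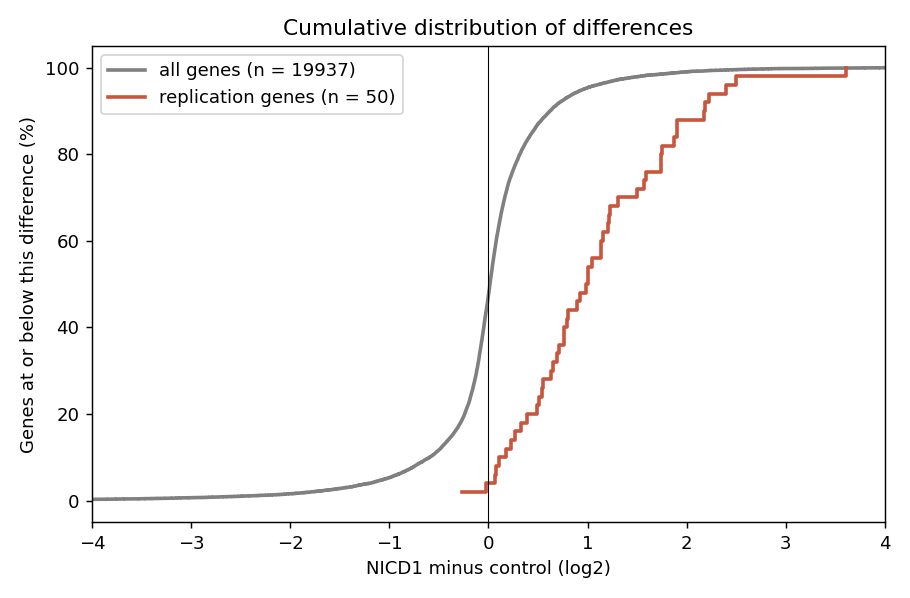
Cumulative share of genes (y axis, percent) at or below each difference between NICD1 and control (x axis, log2), for the 50 replication genes (red) and all 19937 genes (grey). The medians are 0.99 and 0.015, and 48 of the 50 replication genes have a difference above 0.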

How the data were processed

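The deposited values are log2 expression per probe set on 6 Affymetrix arrays, 3 per group. Per the labels' protocols, the authors labelled whole-kidney RNA with a one-cycle kit and normalized the arrays in GeneSpring with RMA16, which equalizes arrays. Whether it compressed the differences of dim genes was not tested, and values as low as 2.89 log2 (Orc1, control replicate 3) were present. The version and the genome build are not given in the sources used here. Depth does not apply to arrays, whose number limits the precision. Of 34760 probe sets, 21640 carried 1 symbol in the platform annotation and 1321 several, which were not named; the brightest probe set on average stood for each of 19937 genes. NICD1 was compared with control in limma 3.58.1 (R 4.3.3; lmFit, eBayes, both directions), with Benjamini-Hochberg adjustment across all genes and a threshold of 0.05. Intervals are 95% and unadjusted. The code was tested on simulated data. The member genes and lists were chosen with earlier results of these data known. Every replication gene is named; arrays are given singly for Mcm2 to Mcm7, the largest and smallest difference of each role and all genes that fell or did not pass; of each list, the up to 4 genes of lowest p and all that fell. Notch1, E2f2, Pole4, Csf1r, Pdgfra, Dcn, Umod, Aqp2, Slc34a1, Tfrc and the 7 lymphocyte markers were named after their values were seen. Of 105 list genes, 6, and of 51 marker genes, 4 were not analysed here. Alternatives were the mean over probe sets, quantile normalization, centring on array medians, no dim genes (lowest 40%), adjustment over all probe sets, a trended robust variance, array weights, an adjusted p of 0.01, a minimum change of 1.5-fold, each array left out in turn, and a replicate block. Promoter windows are from RefSeq, GRCm38.p6.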

Additional observations from a re-analysis of the deposited data

How the results depend on the processing

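Of the 42 genes called higher, 40 kept the call in each of the 15 alternatives other than the minimum change in which they were tested; Gins3 and Rfc1 did not. With a minimum change of 1.5-fold 24 were called higher, beside 846 of all 19937 genes. The count of lower genes, 0, became 1 (Orc3) after centring, without the dimmest genes and with array weights, and ranged from 0 to 1 when an array was left out. Centring moved the median of all genes from 0.015 to -0.11 and the split of their calls from 54.4% to 39.4% higher, and left 40 replication genes higher with a median of 0.87. It turned Orc2 to -0.018, Orc5 to -0.047 and Rfc2 to -0.062; quantile normalization turned Orc5 to -0.0012. Leaving out an array gave Orc4 between -0.14 and 0.069 and Orc5 between -0.024 and 0.22. None of the values of Orc2, Orc4, Orc5 and Rfc2 passed the test, and the causes were not tested. With the replicate block 40 genes were called higher. Same-numbered arrays of the groups did not deviate together (r = -0.069, -0.012 and -0.070 across genes). A correlation across all genes cannot exclude that the numbers pair the samples, and the sample titles do not state it. The second probe set of Tk1, added after seeing the data, did not pass (0.40).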

Other observations

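Within the ranking of all 19937 genes by their rise, Mcm6 stood at place 22, 1 place after Notch1. Pole, at place 96, and Uhrf1, at 112, followed, then Mcm4 at 139, Mcm3 at 153 and Pola1 at 156. These 6 were the replication genes that were called and at least 4-fold higher, beside 197 of all 19937 genes. Of the 50, 26 lay among the 5% of genes with the largest rise. At the other end Orc3 stood at place 16274 and Orc4 at 11155.

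Other short words were counted in the same promoter windows, on both strands and with overlaps between words allowed. The GC box GGGCGG stood in 71.7% of the 53 windows of replication genes and 35.7% of all windows, and ATTGG, the reverse of the CCAAT box, in 58.5% and 37.4%. TGGGAA, the core of the site known for Rbpj, the DNA-binding partner of Notch, stood in 39.6% and 25.6%. It was found in 17 of the 36 genes called higher and 4 of the 6 that did not pass. TTTGAA, known from promoters of mitotic genes, stood in 11.3% and 17.9%, TTCGAA in 3.77% and 1.56%, and TTTGCGC in 1.89% and 1.62%. These shares are descriptions, and the windows differed in G and C content (61.3% against 52.7%).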
